A study of Mus musculus with 18 samples.

Results

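The step from RANKL day 1 to RANKL day 3 was examined in bone marrow-derived macrophages labelled Zmat1 knockout (KO). The 3 KO libraries of day 3 were set against the 3 KO libraries of day 1, chosen by their labels alone. So 6 of the 18 libraries of the series were compared. All 18 were fitted together, so the p-values also rest on the spread in the other libraries. The cells came from mice of C57BL/6 background that were a few weeks old, were offspring of heterozygous parents, and are described as global Zmat1 knockouts, a deletion not limited to the osteoclast lineage. Both groups had been grown with M-CSF, the growth factor that keeps macrophages alive, before RANKL was added, and M-CSF was kept during RANKL. The other libraries were KO cells without RANKL (day 0) and the same 3 days in cells of the wild-type (WT) label, 3 libraries each. By title, the WT day 1 libraries carry the numbers 1, 1 and 2, and the labels do not say whether they are 3 independent samples. The labels do not say whether libraries of a group came from separate mice or cultures, so the p-values measure the spread between these libraries, which may be technical.

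RANKL binds its receptor RANK on macrophages and starts a cascade through TRAF6, NF-κB and c-Fos that ends in the amplification of NFATc1, the transcription factor that drives the osteoclast genes. Committed precursors fuse into giant cells, attach to bone through αvβ3 integrin and a ring of actin, pump acid through a proton pump and a chloride channel, and secrete proteases such as cathepsin K. Bone-resorbing cells carry many mitochondria, and factors of the macrophage state such as IRF8 are normally lost on the way. Day 1 is a time of precursors that have met RANKL, and day 3 a time when fusion has begun.

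Total counts in the 6 libraries ran from 13789775 to 17559958, and 14241 of 34745 genes passed the filter on low counts. Levels are given as CPM, that is counts relative to the size of the library after TMM scaling (a trimmed mean of log ratios between libraries). The titles of the KO day 1 libraries 1 and 2 were written with a double hyphen, and those of KO day 1 library 3 and all 3 KO day 3 libraries with a single hyphen. What the style of a title stands for is not stated. On the leading principal component of all 18 libraries (55.7% of the variance) the day 1 libraries 1, 2 and 3 scored -32.5, -37.8 and 5.96 and the day 3 libraries 90.5, 110 and 84.8, so day 1 library 3 stood nearest to day 3. The mitochondrial gene mt-Atp6 took 0.312%, 0.366% and 0.0277% of counts on day 1 and 0.0331% to 0.0395% on day 3, which followed the title style and not the day. Counts of calls are therefore also given with the single-hyphen libraries alone, 1 of day 1 against 3 of day 3, where the lone day 1 library is assumed to vary like the other groups. Zmat1 itself (X, 134971372 to 135009209, GRCm38) was measured at 4.04, 5.30 and 6.47 CPM in the KO day 1 libraries and at 5.66, 4.65 and 4.82 CPM in those of day 3. Its mean was 3.99 ± 0.431 CPM (SD, n = 3) in WT day 1 and 3.26 ± 1.30 CPM (n = 3) in WT day 3, so the gene's count did not follow the label. The paper genotyped its mice by PCR of tail DNA and compared Zmat1 mRNA by qPCR in macrophages of both genotypes. The sources used here do not say which part of the gene was deleted, so these counts over the whole gene cannot check the labels. KO below means the libraries labelled KO.

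Promoter sequences of 4 genes named in the results below are shown for orientation, from RefSeq (GRCm38.p6), 250 bases before to 50 after the gene start on the gene's strand. Motif matches on either strand are in capitals. The letters searched were GAAANNGAA for the interferon-stimulated response element (ISRE), TCACGTG for the E-box bound by MITF and its relatives, and GGAAA for NFAT. Ifit3 and Rsad2 fell, Ctsd fell, and Ctsk rose from day 1 to day 3.
Ifit3, ISRE in capitals, chr19:34583279-34583578, plus strand: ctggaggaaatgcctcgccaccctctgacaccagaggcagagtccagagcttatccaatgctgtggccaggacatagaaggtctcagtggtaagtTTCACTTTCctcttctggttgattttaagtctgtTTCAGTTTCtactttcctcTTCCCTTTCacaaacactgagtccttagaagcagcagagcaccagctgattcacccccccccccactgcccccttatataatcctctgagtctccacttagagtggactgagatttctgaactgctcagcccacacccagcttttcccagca
Rsad2, ISRE in capitals, chr12:26456403-26456702, minus strand: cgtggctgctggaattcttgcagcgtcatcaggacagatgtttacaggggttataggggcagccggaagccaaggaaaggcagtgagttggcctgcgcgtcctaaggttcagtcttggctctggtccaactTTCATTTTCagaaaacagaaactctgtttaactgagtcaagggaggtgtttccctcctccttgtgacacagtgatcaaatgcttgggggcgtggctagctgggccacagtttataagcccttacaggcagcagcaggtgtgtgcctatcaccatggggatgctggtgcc
Ctsd, E-box in capitals, chr7:142387778-142388077, minus strand: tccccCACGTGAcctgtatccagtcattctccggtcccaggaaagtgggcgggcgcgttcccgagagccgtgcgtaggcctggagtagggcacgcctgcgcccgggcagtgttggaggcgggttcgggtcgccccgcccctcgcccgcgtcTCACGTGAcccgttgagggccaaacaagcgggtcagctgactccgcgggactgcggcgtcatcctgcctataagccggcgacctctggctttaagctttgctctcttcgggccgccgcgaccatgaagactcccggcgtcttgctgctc
Ctsk, NFAT core in capitals, chr3:95498960-95499259, plus strand: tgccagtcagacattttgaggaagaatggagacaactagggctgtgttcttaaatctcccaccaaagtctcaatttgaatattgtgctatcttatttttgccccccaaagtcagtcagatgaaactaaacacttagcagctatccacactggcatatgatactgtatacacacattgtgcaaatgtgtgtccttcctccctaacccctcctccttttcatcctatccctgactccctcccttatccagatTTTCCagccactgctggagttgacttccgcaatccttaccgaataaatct
The Ifit3 window held 3 ISRE matches and the Rsad2 window 1. The Ctsd window held 3 E-box matches, since the palindrome TCACGTGA reads as a match on each strand. The Ctsk window held 1 NFAT match and 0 matches of the AP-1 letters TGANTCA. Promoters were found for 10316 of 14227 tested symbols (72.5%). The ISRE letters were in 7.51% of all these promoters, in 5.62% of the 1300 of genes called higher on day 3, in 10.5% of the 1660 of genes called lower, and in 12 of the 18 matched promoters of the interferon response list described below (66.7%). The E-box letters were in 5.93% of all, 3.62% of those called higher, 7.05% of those called lower, and 7 of the 24 matched lysosomal promoters (29.2%). The short NFAT core was in 59.4% of all promoters and 54.0% of those called higher. These matches describe letters in a window and not binding.

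Between day 1 and day 3, 3989 of the 14241 genes tested passed an adjusted p threshold of 0.05 (28.0%) in edgeR's quasi-likelihood test, adjusted by Benjamini and Hochberg's method. Of these, 1784 were higher on day 3 (12.5% of genes tested) and 2205 lower (15.5%). These shares are the background against which the list counts below are to be read. Increases were the larger ones, with 260 genes more than 8-fold higher and 71 more than 8-fold lower among the calls, while 1000 rose and 976 fell by more than 2-fold. Scaling by total counts in place of TMM shifted the median of all genes by 0.281 on the log2 scale and turned the split to 2972 higher and 1207 lower, so directions of small changes below are relative to the TMM scale. The count of calls was 2235 without day 3 library 2, 2287 without day 1 library 2, 2305 without day 1 library 1, and 606 (288 higher, 318 lower) with the single-hyphen libraries alone. The 3 day 3 libraries all lay above the 3 of day 1 in 25.6% of genes tested and all below in 25.1%. A lack of overlap was therefore common over all genes. Changes in a bulk sample can come from fewer cells of a type or from less RNA per cell, and these cannot be told apart here.

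The machinery that dissolves bone rose steeply. Of its tested genes 70.6% were called, against 28.0% of all genes tested. Among 17 tested genes for resorption and acid transport, 11 were called higher and 1, Rab3d, lower (a call lost with a replicate block and without any library but day 1 library 3), with a median log2 fold change of 1.67 against 0.002 over all genes tested. The same count of higher calls, 11, was found when any 1 library was left out, and 10 were called with the single-hyphen libraries alone. Ctsk, the collagen-cutting protease cathepsin K (3, 95499256 to 95509362), stood at 49.2, 49.3 and 34.9 CPM on day 1 and at 3007, 4450 and 2124 CPM on day 3. Its 2 sets of libraries lay far apart, with a log2 fold change of 6.17 (SE 0.53, adjusted p = 1.49e-05, edgeR). Acp5, the tartrate-resistant acid phosphatase used to stain osteoclasts, went from 101, 88.8 and 192 CPM to 3066, 4220 and 2300 CPM. Mmp9, the gelatinase of osteoclasts, went from 66.4, 84.1 and 243 CPM to 4826, 7373 and 2908 CPM. For both genes day 1 library 3 was the highest of its day and day 3 library 3 the lowest of its day, and the groups did not overlap (log2 fold changes 4.65, SE 0.40, adjusted p = 1.49e-05, and 5.26, SE 0.75, adjusted p = 0.000339, edgeR). Without day 1 library 3 the log2 fold change of Mmp9 was 6.10.

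Some genes for acid supply and attachment also rose. Slc9b2, a sodium-proton exchanger, rose from 0.192, 0.573 and 2.02 CPM to 209.9, 291 and 137 CPM (log2 fold change 7.84, SE 0.79). Car2, the carbonic anhydrase that makes the protons, rose from 0.641, 1.15 and 2.30 CPM to 45.5, 60.3 and 20.9 CPM (4.95, SE 0.52). In both, the lowest day 3 library was many times above the highest of day 1. The calcitonin receptor gene Calcr had 0 counts in every day 1 library and 10.2, 13.8 and 6.68 CPM on day 3, at least 49.8-fold higher when 3 counts are set in each day 1 library. Slc4a2, the bicarbonate-chloride exchanger that balances acid export, had a log2 fold change of 1.90 (SE 0.19), Snx10, a vesicle sorting protein, 1.32 (SE 0.28), and the membrane protease Mmp14 1.67 (SE 0.39). Both chains of the αvβ3 integrin rose, Itgb3 by 2.79 (SE 0.44) and Itgav by 1.54 (SE 0.25). The adjusted p of these 8 genes ran up to 0.00651 (edgeR). Without day 1 library 3, the highest of its day, the log2 fold change was 9.15 for Slc9b2 and 5.60 for Car2. The chloride transporter gene Clcn7 of the same list did not rise. It was at 570.5, 496.9 and 356.3 CPM on day 1 and 354.5, 421.8 and 316 CPM on day 3 (-0.38, SE 0.19, adjusted p = 0.15, edgeR). Ostm1 (-0.02), Plekhm1 (-0.26) and Rab7 (-0.58) did not pass either, nor did Tcirg1, given below.

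The proton pump list had the called share of all genes tested. Of 18 tested subunits, 4 were called higher and 1, Atp6v0a1, lower (27.8% against 28.0%, median 0.27), and 3 were called higher with the single-hyphen libraries alone. The call of Atp6v0a1 was lost with a replicate block and without any library but day 1 library 3. With the replicate number as a block in the 6 libraries, 8 were called higher, and with title style in the model 10. Atp6v1d rose by 0.78 on the log2 scale (SE 0.19, adjusted p = 0.00843, edgeR) and Atp6v1b2 by 0.94 (SE 0.26, adjusted p = 0.0176, and 0.0828 without day 3 library 2). The osteoclast-enriched subunit gene Atp6v0d2, which also takes part in fusion, was at 277, 432 and 162 CPM on day 1 and 461, 616 and 354 CPM on day 3, so the groups overlapped, and it did not pass the test (log2 fold change 0.71, SE 1.14, adjusted p = 0.664, and 0.0277 with the block in the 6 libraries and 0.0314 with title style in the model). Tcirg1, which encodes the a3 subunit of the pump, was at 984, 1028 and 832 CPM on day 1 and 829, 931 and 694 CPM on day 3 (-0.21, SE 0.17, adjusted p = 0.368). Without day 3 library 2 only 1 subunit was called higher and without day 3 library 1 only 2, and scaling by total counts gave 9.

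The main fusion genes rose from almost nothing. Ocstamp and Dcstamp, membrane proteins needed for precursors to fuse, were at 0.449, 0.358 and 2.71 CPM and at 0.128, 0.358 and 1.88 CPM on day 1. On day 3 they reached 140.2, 158 and 82.0 CPM and 73.0, 91.8 and 42.7 CPM. In each case day 1 library 3 was the highest of its day, still far under every day 3 library (log2 fold changes 6.75, SE 0.92, and 6.45, SE 0.76, with adjusted p = 0.000267 and 9.39e-05, edgeR), and 8.29 and 8.17 without day 1 library 3. Tm4sf19, a tetraspanin-like membrane protein of osteoclasts, rose by 2.95 (SE 0.45), while Cd47, a surface protein that signals to macrophages, fell by 1.12 (SE 0.19). In all, 6 of 14 tested fusion genes were called higher and 2 lower (median 0.76). Over all genes tested 12.5% were called higher and 15.5% lower, so the lower count was near that share. The higher count was 3 with the single-hyphen libraries alone, and also 3 without day 1 library 1, day 1 library 2 or day 3 library 2. The lower count was 1 without day 1 library 2, day 3 library 1 or day 3 library 2.

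Among 21 osteoclast transcription factors, 8 were called higher and 4 lower (median 0.23), and 5 and 0 with the single-hyphen libraries alone. The lower count was 2 without day 1 library 1 and 1 without day 1 library 2, day 3 library 1 or day 3 library 2. For all genes tested the shares were 12.5% higher and 15.5% lower, and the 4 lower calls were little above theirs. Nfatc1, the factor that commands the programme, rose from 89.5, 99.2 and 115 CPM to 447, 520.5 and 302 CPM, a log2 fold change of 2.06 (SE 0.20, adjusted p = 4.69e-05, edgeR) with no overlap between days. Jdp2, an AP-1 partner that acts on the Nfatc1 gene, rose by 3.597 (SE 0.64, and 4.32 without day 1 library 3), Fosl2, another AP-1 member, by 2.65 (SE 0.29), and Ppargc1b, a coactivator of mitochondrial growth in osteoclasts, by 2.70 (SE 0.32). Prdm1 (Blimp1), which silences the repressors of osteoclast formation, rose by 1.33 (SE 0.32), and Esrra, a nuclear receptor of energy metabolism, by 0.58 (SE 0.14). Fos rose by 1.57 (SE 0.55, adjusted p = 0.0471), a call lost without day 1 library 1, day 1 library 2, day 3 library 1 or day 3 library 2 (adjusted p = 0.146, 0.137, 0.116 and 0.124) and with the replicate block within the label (0.0752). The E-box factors went the other way or did not pass. Tfe3 fell by 1.02 (SE 0.16) and Tfeb fell by 1.21 (SE 0.35, adjusted p = 0.0189), and Mitf had a log2 fold change of -0.29 (SE 0.17, adjusted p = 0.194). The call of Tfeb was lost without day 1 library 1 (0.061), day 1 library 2 (0.0869), day 3 library 1 (0.0551) or day 3 library 2 (0.0663).

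Of the repressors of osteoclast formation, 5 of 11 were called lower and 0 higher (median -0.96), and 2 with title style in the model. The main share was 45.5%, against 15.5% of all genes tested called lower. Irf8, the macrophage factor that holds NFATc1 in check, fell from 337, 324 and 252 CPM to 76.1, 59.5 and 111 CPM (log2 fold change -1.89 with SE 0.36 and edgeR adjusted p = 0.00195). The days did not overlap, and day 3 library 3 kept the highest level of its day. Arid5a, an RNA-binding protein, fell by 1.44 (adjusted p = 0.00886, and 0.054 without day 1 library 1). Tnfrsf11b, the decoy receptor osteoprotegerin, was at 14.6, 9.81 and 40.6 CPM on day 1 and 52.5, 51.3 and 106 CPM on day 3, and did not pass (1.69, SE 0.94, adjusted p = 0.188, and 0.0108 with the replicate block in the 6 libraries). No repressor was called with the single-hyphen libraries alone, and the count fell to 2 without day 1 library 1 and to 3 without day 1 library 2, day 3 library 1 or day 3 library 2.

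Receptors and their signalling proteins went both ways. Calls made up 76.2% of those tested, against 28.0% of all genes tested (12.5% higher, 15.5% lower). Of 21 tested, 5 were called higher and 11 lower (median -0.57), the same counts when any 1 library was left out, and 4 and 0 with the single-hyphen libraries alone. The 5 were Oscar and Siglec15, immune-type receptors that give the costimulatory signal of osteoclasts, Itgb3, the kinase Src, and Tnfrsf11a, which encodes RANK. Oscar was at 0, 0.0716 and 0.139 CPM on day 1 and 32.7, 98.0 and 25.6 CPM on day 3, at least 254-fold higher against the limit of 3 counts (at least 142-fold without day 3 library 2). Siglec15 rose from 0.256, 0.43 and 0.556 CPM to 43.1, 57.6 and 23.0 CPM (log2 fold change 6.62, SE 0.65). Src rose by 2.15 (SE 0.38) and Tnfrsf11a by 1.26 (SE 0.30, adjusted p = 0.00763, edgeR). Several transcripts for the costimulatory signal fell. The log2 fold change was -1.58 (SE 0.29) for Fcer1g (FcRγ), -1.18 (SE 0.21) for Tyrobp (DAP12), -1.33 (SE 0.32) for the receptor Trem2, -1.26 (SE 0.27) for the kinase Syk and -0.82 (SE 0.14) for Plcg2. Csf1r, the receptor of M-CSF, went from 4135, 3697 and 2489 CPM to 1274, 1166 and 1316 CPM (-1.46, SE 0.26, adjusted p = 0.00128). The adaptor Lcp2 (SLP-76) of the same list was at 145, 139.9 and 101 CPM and then 136.5, 142 and 107 CPM (adjusted p = 0.996).

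In the list of the actin ring and podosomes, the adhesion structures of osteoclasts, 9 of 24 tested genes were called higher and 4 lower (median 0.32), against 2 and 0 with the single-hyphen libraries alone. In the main fit 54.2% were called, against 28.0% of all genes tested (12.5% higher, 15.5% lower). So the 4 lower calls were near the share of all genes. The higher count was 5 without day 1 library 1 or day 1 library 2, and the lower count 2 without either of these or day 3 library 2. Dock5, an activator of Rac needed for the ring, rose from 22.7, 23.9 and 54.6 CPM to 165, 187 and 127 CPM (log2 fold change 2.24 with SE 0.44 and edgeR adjusted p = 0.00231). Gsn (gelsolin), which cuts actin filaments, rose by 0.91 (SE 0.18), and Vcl (vinculin) by 1.73 (SE 0.47, adjusted p = 0.0147, and 0.0589 without day 1 library 1 or 0.0687 without day 1 library 2). The leukocyte genes Was, an activator of actin branching, and Fermt3, an integrin activator, changed by -1.05 (SE 0.16) and -0.74 (SE 0.12).

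Coupling factors are signals by which osteoclasts act on bone-forming cells. Of 13 tested, 6 were called higher and 1, Tgfb1, lower (median 1.33, the call of Tgfb1 lost without day 1 library 1 or 2 or day 3 library 1 or 2), with 2 and 0 in the single-hyphen libraries alone. Lif, a cytokine of the interleukin 6 family, rose from 1.67, 2.43 and 2.43 CPM to 16.4, 31.6 and 24.5 CPM (log2 fold change 3.47 with SE 0.55 and edgeR adjusted p = 0.000654). Cd109, a surface protein that binds TGF-β, rose by 3.28 (SE 0.54, and 4.15 without day 1 library 3) and Pdgfb by 2.10 (SE 0.53, adjusted p = 0.0101, and 0.0512 without day 1 library 1 or 0.0514 without day 1 library 2). Spp1 (osteopontin) was at 2533, 2266 and 2098 CPM on day 1 and 3130, 3639 and 3122 CPM on day 3 and did not pass the test (0.52, SE 0.38, adjusted p = 0.308). In the main fit 53.8% of coupling factors were called, against 28.0% of all genes tested (12.5% higher, 15.5% lower). The higher count fell to 2 without day 1 library 1 or day 1 library 2 and to 3 without day 3 library 2 or with title style in the model. Without day 1 library 3 the log2 fold change of Pdgfb was 2.805.

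**Figure D1:**
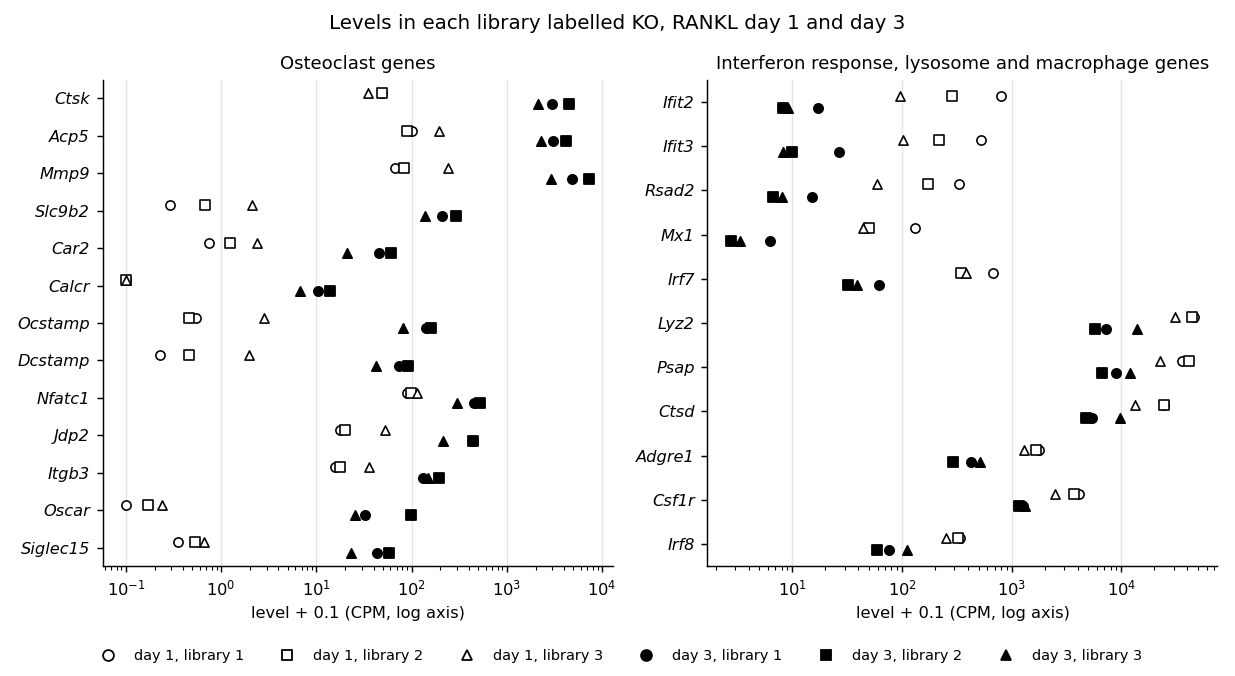
Level of 24 genes in each of the 6 KO libraries, as CPM plus 0.1 on a log axis. Open symbols are the 3 libraries of RANKL day 1 and filled symbols those of day 3 (circle, library 1, square, library 2, triangle, library 3). Ctsk sits between 34.9 and 49.3 CPM on day 1 and between 2124 and 4450 CPM on day 3, and Ifit2 between 95.6 and 803 CPM on day 1 and between 8.07 and 16.9 CPM on day 3.

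The rule of largest fold change named 15 genes in each direction. Beside the osteoclast genes above, the higher ones held Nyap2, an adaptor of phosphoinositide 3-kinase signalling, with 0 counts in every day 1 library and 18.1, 23.6 and 14.9 CPM on day 3 (at least 91.9-fold). Mst1r, a receptor tyrosine kinase, was at 0.128, 0 and 0.139 CPM on day 1 and at 85.2, 122 and 41.3 CPM on day 3 (at least 403-fold). The metallothionein Mt3 was at least 225-fold higher, the collagen chain Col8a2 at least 107-fold and the calpain Capn6 at least 58.5-fold. Col8a2 was at 27.46, 32.91 and 5.665 CPM on day 3, with library 3 well under libraries 1 and 2. Without day 3 library 2 its bound was 80.7-fold. Scin (scinderin), an actin-severing protein, rose by 8.49 (SE 0.90) on the log2 scale, Rufy4 by 7.04 (SE 0.75) and Kbtbd11 by 6.73 (SE 0.59). Kbtbd11 was at 2.24, 2.72 and 4.03 CPM on day 1, and the others at most at 0.626 CPM in any day 1 library. None of the 8 lost its call when 1 library was left out. Scin stood at 10.309 without day 1 library 3. Ibsp, the bone sialoprotein, was at 0.385, 0.358 and 3.97 CPM on day 1 and at 253, 235 and 27.0 CPM on day 3, with day 3 library 3 well under the other two (6.77, SE 1.29, and 8.85 without day 1 library 3). Pcdhga2, a protocadherin whose locus overlaps 26 other counted loci, owed its place to a single library (65.2, 1.35 and 1.08 CPM on day 3) and is uncertain, with an adjusted p of 0.229 without day 3 library 1, 0.0692 without day 1 library 1 and 0.0717 without day 1 library 2.

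A few abundant genes changed the make-up of the libraries. Mmp9, Ctsk and Acp5 together took 0.0192%, 0.0196% and 0.0491% of all counts on day 1 and 1.28%, 1.85% and 0.796% on day 3. The 10 genes with the largest gain in mean CPM took 0.383%, 0.346% and 0.798% on day 1 and 2.66%, 3.43% and 2.61% on day 3. They were Mmp9, Thbs1, Ctsk, Acp5, Cxcl12, Scd2, Ckb, Flna, Vim and Atp5b. Ckb, the brain-type creatine kinase that supplies ATP to the sealing zone, rose from 158, 150.3 and 189.5 CPM to 951, 1363 and 685 CPM (log2 fold change 2.59 with SE 0.28 and edgeR adjusted p = 5.54e-05). Scd2, a fatty acid desaturase, rose by 1.47 (SE 0.35) and the filament protein Vim by 0.91 (SE 0.18, adjusted p = 0.0515 with the replicate block in the 6 libraries). The secreted protein Thbs1 (1.77, adjusted p = 0.0375) and the actin crosslinker Flna (0.82, adjusted p = 0.0337) lost their calls with several libraries left out. For Thbs1 these were day 1 library 1 (0.134), day 1 library 2 (0.141), day 3 library 2 (0.0589) and day 3 library 3 (0.154), and its log2 fold change was 2.55 without day 1 library 3. For Flna they were day 1 libraries 1 (0.127) and 2 (0.128) and day 3 libraries 1 (0.0528), 2 (0.0619) and 3 (0.112).

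The losses were larger in mass. The 10 genes with the largest loss in mean CPM were Lyz2, Psap, Ctsb, Ctsd, Apoe, Fth1, Gpnmb, Ctss, H2-D1 and Mpeg1, and together took 17.5%, 18.1% and 12.4% of counts on day 1 and 5.03%, 3.86% and 7.01% on day 3. Lyz2, the lysozyme of macrophages, fell from 46130, 44170 and 30580 CPM to 7257, 5730 and 13890 CPM (log2 fold change -2.17 with SE 0.46 and edgeR adjusted p = 0.00368). The range of day 3 lay under that of day 1, with day 3 library 3 the highest of its day and day 1 library 3 the lowest of its day. Gpnmb, a transmembrane glycoprotein, fell by 1.80 (SE 0.56, adjusted p = 0.0278), a call lost without day 1 library 1 (0.0796), day 1 library 2 (0.114), day 3 library 1 (0.0764) or day 3 library 2 (0.104), and with the replicate block in the 6 libraries (0.0619). The pore-forming Mpeg1 fell by 2.26 (SE 0.45) and the class I molecule H2-D1 fell by 1.65 (SE 0.34).

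**Figure D2:**
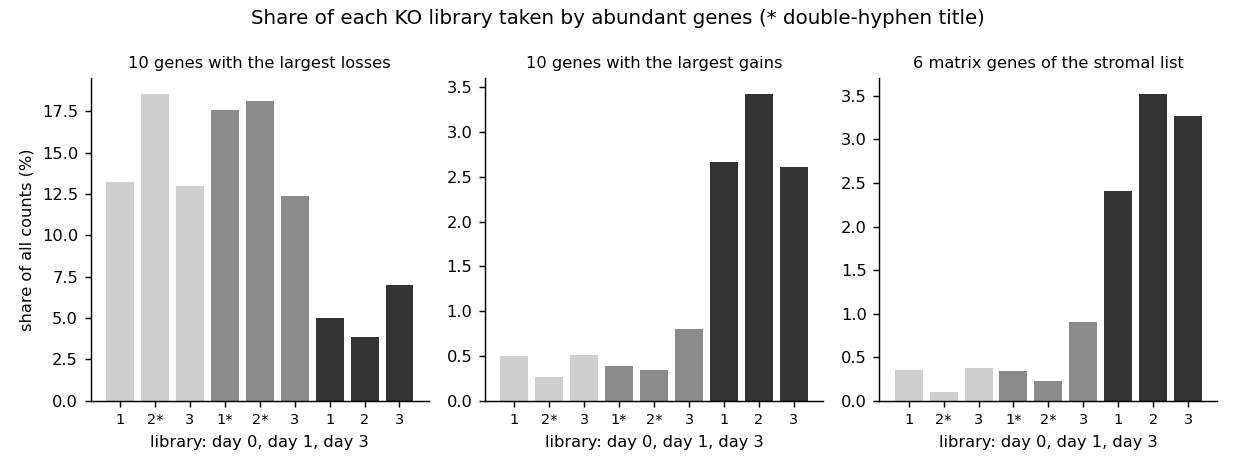
Share of all counts (%, bars from 0) in each of the 9 KO libraries taken by the 10 genes with the largest losses, by the 10 with the largest gains and by 6 matrix genes of the stromal list. The losses take 12.4% to 18.1% on day 1 and 3.86% to 7.01% on day 3, the gains 0.346% to 0.798% and 2.61% to 3.43%, and the matrix genes 0.229% to 0.900% and 2.41% to 3.53%.

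Transcripts of energy metabolism rose by modest folds in large numbers. Of 50 tested genes of the respiratory chain, 34 were called higher and 0 lower (median 0.52). That was 68%, against 12.5% of all genes tested called higher. Atp5b, the catalytic subunit of ATP synthase, rose from 603, 587 and 707 CPM to 1285, 1463 and 1091 CPM (log2 fold change 1.02 with SE 0.16 and edgeR adjusted p = 0.000656). Cyc1 of complex III rose by 1.40 (SE 0.21), Uqcrc2 of the same complex by 1.02 (SE 0.14) and Sdha of complex II by 0.62 (SE 0.14, adjusted p = 0.0738 with the replicate block in the 6 libraries). For each of the 4 the lowest day 3 library was above the highest of day 1. The count ranged from 15 without day 3 library 2 to 35 without day 3 library 3, with 21 without day 1 library 2 and 22 without day 3 library 1, and was 46 with total counts as scaling, 22 with the block in the 6 libraries and 5 with the single-hyphen libraries alone. Of 18 glycolysis genes, 13 were called higher and 1 lower (median 0.90), at least 8 with any 1 library left out (8 without day 1 library 2 or day 3 library 2) but 0 with the single-hyphen libraries alone. Slc16a3, the lactate exporter, rose by 1.75 (SE 0.33), Ldha by 1.13 (SE 0.25) and the glucose transporter Slc2a1 by 0.91 (SE 0.21). Hk3, the hexokinase of myeloid cells, fell by 1.43 (SE 0.30). Glycolysis calls made up 77.8% of the list, against 28.0% of all genes tested.

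Lysosomal genes fell together. The share called lower was 83.9%, against 15.5% of all genes tested. Of 31 tested hydrolases and membrane proteins, 26 were called lower and 0 higher (median -0.92), a list whose summed level was 117000, 123100 and 72920 CPM on day 1 and 32360, 27140 and 43480 CPM on day 3. Day 1 library 3 had the lowest sum of its day and day 3 library 3 the highest, and the days did not overlap. Ctsb, the protease cathepsin B, fell from 23300, 23500 and 14600 CPM to 5582, 4477 and 7477 CPM (log2 fold change -1.81 with SE 0.36 and edgeR adjusted p = 0.00243). The log2 fold change was -2.41 (SE 0.50) for Ctss, -1.48 (SE 0.29) for Lamp1, a main protein of the lysosomal membrane, -1.36 (SE 0.30) for Ctsl, and -1.28 (SE 0.26) for Lgmn (legumain). Ctsk, the cathepsin of bone, rose at the same time, as given above. Ctsd fell by 1.64 (adjusted p = 0.0132), a call lost without day 1 library 1 (0.0515), day 1 library 2 (0.0532), day 3 library 1 (0.0556) or day 3 library 2 (0.0661), and with the replicate block in the 6 libraries (0.0812). Psap, the saposin precursor, fell by 1.85 (adjusted p = 0.0109, 0.0575 without day 3 library 2 and 0.0606 with that block) and Gla fell by 1.24 (adjusted p = 0.0115, and 0.0549 without day 1 library 1). The list's count was 16 without day 1 library 1 or day 1 library 2, 17 without day 3 library 1 or day 3 library 2, and 0 with the single-hyphen libraries alone.

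Genes of macrophage identity fell as well, 17 of 27 tested and 0 higher (median -1.56). That was 63%, against 15.5% of all genes tested called lower. Their summed level was 58920, 55940 and 40290 CPM on day 1 and 11410, 8876 and 18980 CPM on day 3. Adgre1, which encodes the macrophage marker F4/80, fell from 1762, 1655 and 1290 CPM to 420.4, 292 and 517 CPM (log2 fold change -1.94 with SE 0.25 and edgeR adjusted p = 0.000205). Fcgr1, the high-affinity Fc receptor, changed by -3.26 (SE 0.55), Mertk, a receptor for dead cells, by -1.92 (SE 0.37), and Cd14, the coreceptor for lipopolysaccharide, by -1.90 (SE 0.34). Marco, a scavenger receptor, fell by 3.95 (adjusted p = 0.00965, and 0.0502 without day 3 library 2), and Clec7a fell by 2.94 (adjusted p = 0.0201, and 0.0728, 0.0857 and 0.067 without day 3 library 1, day 3 library 2 and day 1 library 2). Without day 3 library 3 the log2 fold changes of Marco and Clec7a were -4.87 and -3.68. The count of the list was 8 without day 3 library 2, 10 without day 1 library 1, 15 without day 1 library 3 or day 3 library 3, and 2 with the single-hyphen libraries alone.

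Complement genes, made by macrophages, gave 8 of 14 called lower and 0 higher (median -1.75), 7 or 8 with any 1 library left out and 3 with the single-hyphen libraries alone. C3 fell from 596, 311 and 543 CPM to 45.5, 30.8 and 78.8 CPM (log2 fold change -3.23 with SE 0.53 and edgeR adjusted p = 0.000804). The receptor C3ar1 changed by -2.05 (SE 0.30) and the C1q chains C1qa, C1qb and C1qc by -1.69, -1.87 and -1.99. Lipid efflux and storage genes gave 6 of 14 called lower and 0 higher (median -1.18), and 1 with the single-hyphen libraries alone. Abca1, the cholesterol exporter, fell from 717, 777 and 734 CPM to 248, 237 and 270.3 CPM (-1.56, SE 0.20, adjusted p = 0.000213), and Lipa, the lysosomal lipase, fell by 1.67 (SE 0.40). Apoe fell by 1.85 (adjusted p = 0.0165), a call lost without day 1 library 2 (0.0592), day 3 library 1 (0.0596) or day 3 library 2 (0.0766). The lipid count was 3 without day 1 library 2 or day 3 library 2, 4 without day 3 library 1, and 11 with the replicate block in the 6 libraries. Complement stood at 57.1% and lipid genes at 42.9% called lower, against 15.5% of all genes tested.

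The interferon response list had the largest share of called members of the 28 lists (96%, against 28.0% of all genes tested). Of 25 tested genes induced by type I interferon, 24 were called lower and 0 higher (median -2.52), and its summed level was 7492, 3904 and 2835 CPM on day 1 and 1081, 644 and 643 CPM on day 3. Ifit2 fell from 803, 285 and 95.6 CPM to 16.9, 8.07 and 9.01 CPM (log2 fold change -5.12 with SE 0.77 and edgeR adjusted p = 0.000479). Rsad2 (viperin) fell from 333, 170.4 and 58.4 CPM to 14.8, 6.49 and 7.99 CPM (-4.26, SE 0.60, adjusted p = 0.000323). In both genes day 1 library 1 was the highest and day 1 library 3 the lowest of its day, and the days did not overlap. The log2 fold change was -4.24 (SE 0.74) for Ifit3, -4.21 (SE 0.67) for Mx1, -3.79 (SE 0.70) for Oas3, -3.78 (SE 0.82) for Cxcl10 and -3.30 (SE 0.61) for Ifit1. Without day 1 library 1 the log2 fold changes of Ifit2, Rsad2, Ifit3, Mx1, Oas3 and Ifit1 were -4.04, -3.52, -3.39, -3.51, -3.16 and -2.50, and without day 3 library 1 those of Ifit3 and Ifit1 were -4.97 and -4.075. The factors that drive these genes fell too, with -3.40 (SE 0.65) for Irf7, -2.16 (SE 0.38) for Stat2 and -1.60 (SE 0.26) for Irf1. Ddx58, the RNA sensor RIG-I, was the member that did not pass, at 284, 169 and 37.1 CPM on day 1 and 73.2, 49.1 and 10.4 CPM on day 3 (-1.89, SE 0.72, adjusted p = 0.064, and 0.00196 with the replicate block within the label and 0.00683 in the 6 libraries). Leaving out 1 library gave 20 to 23 calls, and the single-hyphen libraries alone 6.

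Of the 15 genes that fell by the largest folds under the rule, 4 were members of that list (Ifit2, Rsad2, Ifit3 and Mx1). Ifit1bl1 was at 46.0, 20.4 and 2.85 CPM on day 1 and had at most 3 counts in each day 3 library, at least 130.1-fold lower (at least 65.6-fold without day 1 library 1). Saa3, an acute phase protein of macrophages, was at 117, 8.67 and 0.139 CPM on day 1 and at 0, 0 and 0.113 CPM on day 3 (at least 236-fold lower on the group means, but at least 24.8-fold without day 1 library 1). Its day 1 library 3 lay at the level of day 3. Irg1, the enzyme that makes itaconate, fell from 58.9, 25.2 and 4.31 CPM to 1.01, 0.306 and 1.59 CPM (log2 fold change -4.91 with SE 0.81 and edgeR adjusted p = 0.000798). Ifit3b, Pydc3, Ms4a4c and Slfn1 changed by -3.95, -3.998, -3.93 and -3.91, the complement factor Cfb by -4.62 and the chemokine Ccl5 by -4.05 (adjusted p = 0.0522 with the replicate block in the 6 libraries). Cfb was at 225, 30.0 and 31.9 CPM on day 1 and at 5.54, 0.734 and 5.32 CPM on day 3. Ccl5 was at 84.9, 23.3 and 4.03 CPM on day 1 and at 2.56, 1.59 and 2.61 CPM on day 3. Day 1 library 1 was far above the other libraries for both, and without it Cfb, Ccl5 and Irg1 stood at -2.97, -2.57 and -3.88, and Ifit3b, Pydc3, Ms4a4c and Slfn1 at -3.17, -3.22, -3.09 and -3.23. Ifit3b stood at -4.57 without day 3 library 1. With the single-hyphen libraries alone Cfb, Ccl5, Irg1 and Saa3 were not called (adjusted p = 0.113, 0.267, 0.108 and 0.634), and Ccl5 stood at -0.80. Tgfb1i1 is on 2 overlapping lines of the table. The line that fell (14.9, 13.96 and 14.5 CPM to 0.0596, 0.551 and 1.13 CPM) lost its call with any 1 of the 6 libraries left out (adjusted p 0.0556 to 0.123), and the other line was higher on day 3 (15.4, 14.2 and 32.2 CPM to 93.3, 114 and 113 CPM), so Tgfb1i1 is uncertain.

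**Figure D3:**
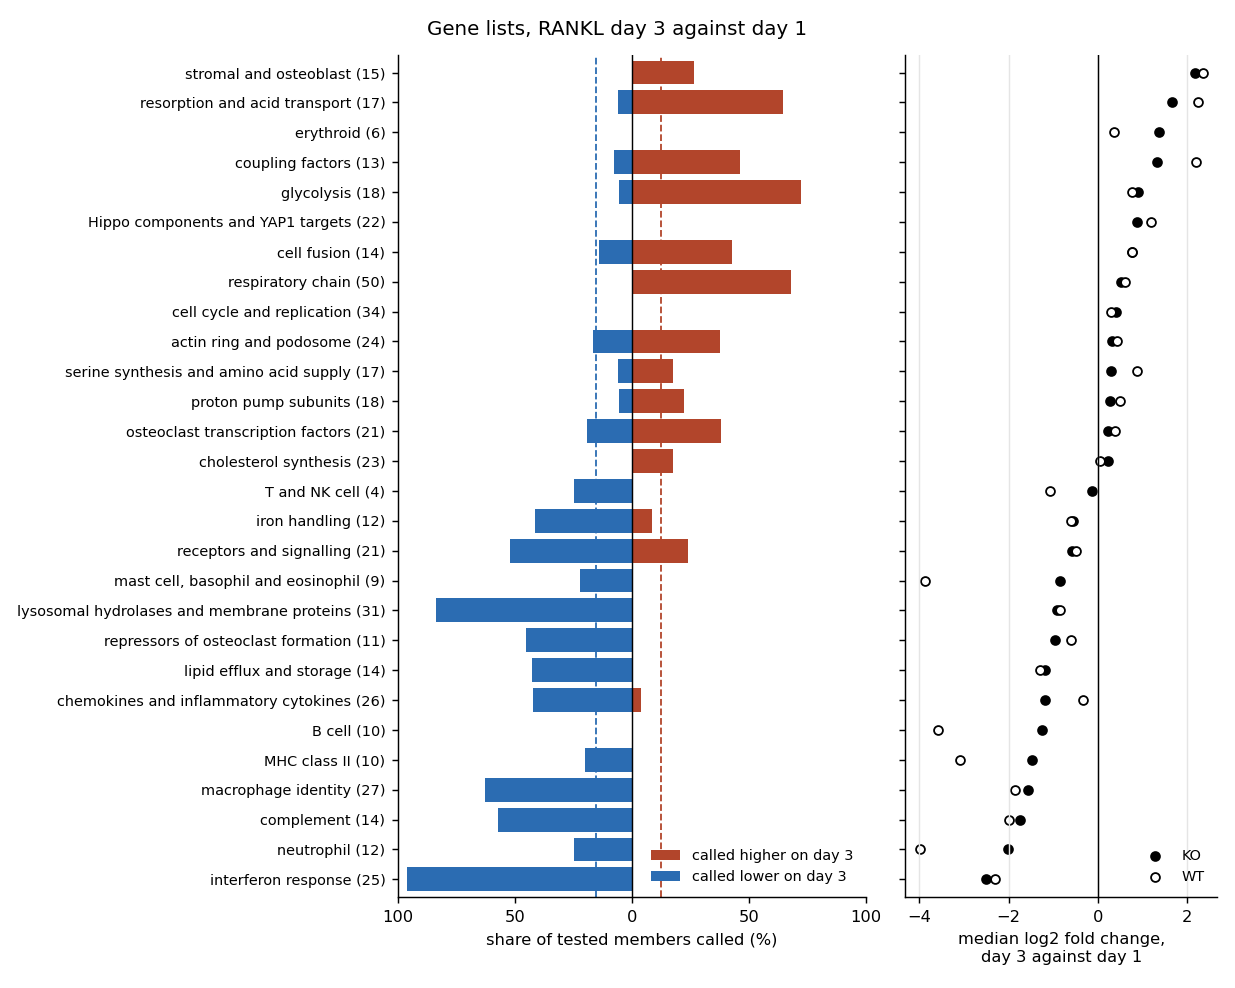
Left, share of the tested members of each of 28 gene lists (number tested in parentheses) called higher (right of 0) or lower (left of 0) on day 3 in the KO libraries, with dashed lines at the shares over all genes tested, 12.5% and 15.5%. Right, median log2 fold change of each list in KO (filled) and WT (open). Interferon response has 24 of 25 members called lower, and resorption and acid transport 11 of 17 called higher.

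Some lists gave no call. Of 34 cell cycle and replication genes, 0 were called in edgeR (median 0.41, 1 at an unadjusted p under 0.05) and 0 by the DESeq2 Wald test. The count stayed 0 with any 1 library left out and was 1 higher and 1 lower when only the 6 libraries were fitted. The median turned to -0.303 with title style in the model (1 called lower) and to -0.403 with the single-hyphen libraries alone, and was 1.213 without day 1 library 3. Their summed level was 928, 931 and 2484 CPM on day 1 and 2169, 1978 and 1705 CPM on day 3, so day 1 library 3 was above all others. Ccnd1 (cyclin D1) was at 54.6, 47.8 and 95.0 CPM on day 1 and 236, 205 and 115 CPM on day 3 (1.49, SE 0.74, adjusted p = 0.14, edgeR). Of 22 Hippo components and YAP1 targets, the pathway that the study followed, 0 were called in edgeR (median 0.87, 4 at an unadjusted p under 0.05) and 2 by the DESeq2 Wald test. The edgeR count depended on the fit, with 7 higher and 1 lower when only the 6 libraries were fitted and 10 higher and 1 lower when the replicate number was a block in them. Without day 1 library 3 it was 1. With title style in the model it was 0 higher and 1 lower, and the median was 0.112. Yap1 was at 20.3, 16.4 and 34.6 CPM on day 1 and 55.1, 59.6 and 77.1 CPM on day 3. Its days did not overlap, as in 25.6% of all genes tested in that direction, and it did not pass the test (1.43, SE 0.79, adjusted p = 0.188). The YAP1 targets Cyr61 (1.73, SE 0.87, adjusted p = 0.149), Amotl2 (2.02, SE 0.80, adjusted p = 0.0704), Ankrd1 (2.14, SE 1.15, adjusted p = 0.172) and Ctgf (1.37, SE 0.99, adjusted p = 0.306) did not pass either. With the block in the 6 libraries Yap1 (adjusted p = 0.0106), Cyr61 (0.0112), Amotl2 (0.00941), Ankrd1 (0.013) and Ctgf (0.0145) passed. Trim46, a ubiquitin ligase that the study followed, rose from 1.92, 0.931 and 1.25 CPM to 6.08, 5.45 and 6.46 CPM (2.12, SE 0.60, adjusted p = 0.0174, with 0.0753 without day 1 library 2, 0.118 with title style in the model and 0.136 with the single-hyphen libraries alone), at counts of at most 114 in a library and with 1 other counted locus overlapping it.

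Summed markers of other cells differed between the days. The 16 stromal and osteoblast genes summed to 4518, 3122 and 9630 CPM on day 1 and 23810, 33840 and 32580 CPM on day 3, with none of the 16 at 0 in either group, and 6 matrix genes among them took 0.337%, 0.229% and 0.900% of counts and then 2.41%, 3.53% and 3.27%. Of 15 tested, 4 were called higher and 0 lower, namely Lum, Cxcl12, Sp7 and Runx2 (median 2.16). That was 26.7%, against 12.5% of all genes tested called higher and 28.0% called in either direction. Col1a1, the main chain of bone collagen, was at 1371, 851 and 3388 CPM on day 1 and 8273, 11750 and 12060 CPM on day 3 and did not pass (2.52, SE 1.15, adjusted p = 0.114, edgeR, and 0.0195 with the replicate block in the 6 libraries). Cxcl12 rose by 3.04 (adjusted p = 0.0427), a call lost without any library but day 3 library 3 (adjusted p 0.0743 to 0.14), and Runx2 by 1.38 (SE 0.30, adjusted p = 0.00439). The count was 14 when only the 6 libraries were fitted, also with the replicate number as a block, 0 with the single-hyphen libraries alone, 1 without day 1 library 1, day 1 library 2, day 3 library 1 or day 3 library 2, and 2 without day 1 library 3. With title style in the model it was 1, and the median 0.737. The summed level of these markers was higher on day 3, as were the fitted levels of the YAP1 targets named above (not past the test), Thbs1, Col8a2, Ibsp and 6 coupling factors, and the part of stromal transcripts in those results was not tested.

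The 12 neutrophil genes summed to 1652, 2259 and 3557 CPM on day 1 and 381, 113 and 1287 CPM on day 3. Mmp8, Ltf and Prtn3 were called lower of 12 tested (median -2.005). That was 25%, against 15.5% of all genes tested called lower and 28.0% called in either direction. With the replicate number as a block within the label 11 were called lower, and with it in the 6 libraries 9. The lactoferrin gene Ltf fell by 2.28 (SE 0.79, adjusted p = 0.0425, edgeR), a call lost without day 1 library 1 (0.0584), 2 (0.088) or 3 (0.0995) or day 3 library 1 (0.126) or 2 (0.136), with a log2 fold change of -3.30 without day 3 library 3. Ngp was at 565, 823 and 1052 CPM on day 1 and 77.6, 26.4 and 313 CPM on day 3 (-2.55, SE 0.92, adjusted p = 0.0523, and 0.0146 with the block within the label and 0.0283 in the 6 libraries). The count was 0 without day 1 library 3, day 3 library 1 or day 3 library 2, 1 without day 1 library 1 or day 1 library 2, 10 without day 3 library 3, and 0 with the single-hyphen libraries alone or with title style in the model. Day 3 library 3 held the most neutrophil transcript of its day and also the lowest Ctsk, Acp5 and Mmp9 and the highest Lyz2 and Irf8. The part of neutrophil transcripts in these results was not tested.

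**Figure D4:**
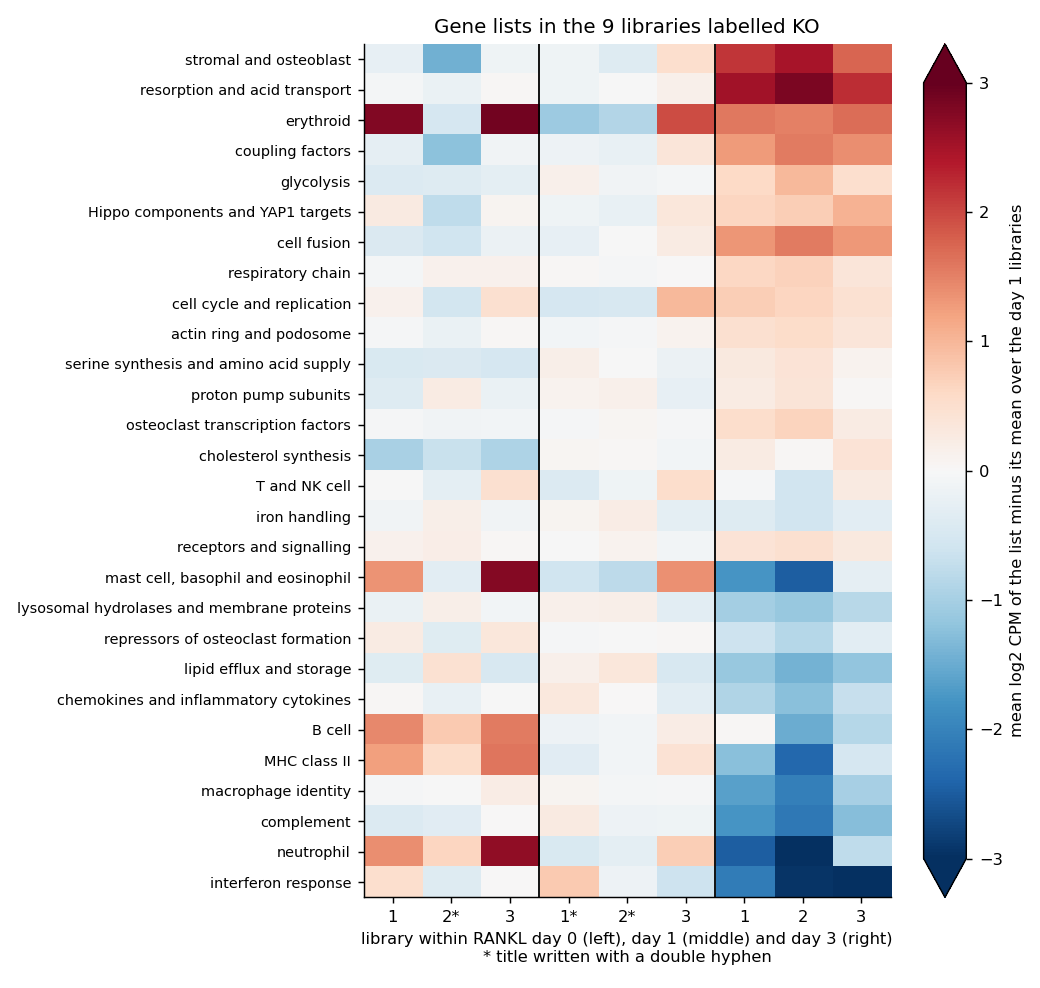
Mean log2 CPM of the tested members of each gene list in the 9 KO libraries, minus the mean over the day 1 libraries (red above, blue below, colours end at 3 in each direction). The resorption list stands at 2.51, 2.82 and 2.22 on day 3 and between -0.20 and 0.14 on days 0 and 1.

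The day 0 libraries place these changes in time. The summed resorption list was 3184, 3381 and 3608 CPM on day 0, 3499, 3418 and 2873 CPM on day 1, and 14630, 20520 and 10690 CPM on day 3. The range of day 1 overlapped that of day 0, and day 3 lay above both. The lysosomal sum was 83530, 127500 and 92780 CPM on day 0, and the macrophage sum 44480, 61760 and 37180 CPM, both overlapping their day 1 ranges and above day 3. The interferon sum was 5956, 3214 and 4443 CPM on day 0, within the range of day 1.

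Whether the step differed between the labels was asked against the WT libraries, which share none with the KO comparison. From day 1 to day 3, 4554 genes were called in WT (32.0% of 14241, with 12.7% higher and 19.3% lower), and 3123 were called under both labels, 78.29% of the KO calls and 68.58% of the WT calls, all 3123 in the same direction. Of the 3989 KO calls, 3953 had the same sign in WT. Across genes, which are not independent replicates, the fold changes of both labels had a Pearson correlation of 0.861. Ctsk changed by 6.17 in KO and 6.65 in WT, Nfatc1 by 2.06 and 2.48, Ifit2 by -5.12 and -4.11, Lyz2 by -2.17 and -2.34, and Trim46 by 2.12 and 2.01. Over the genes called under both labels the median absolute log2 fold change was 1.05 in KO and 1.11 in WT.

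The test of the difference itself, the interaction of label and day, called 0 of 14241 genes (0.00%), with 363 at an unadjusted p under 0.05 in edgeR, and the DESeq2 Wald test called 1, with 415 at an unadjusted p under 0.05. A call under 1 label only, as in 866 genes for KO and 1431 for WT, is therefore not shown to be a difference. The gene with the smallest interaction p in edgeR, and the 1 that DESeq2 called (adjusted p = 0.0364), was Rgs11, a regulator of G protein signalling, at 1.60, 2.43 and 1.81 CPM on KO day 1 and 3.22, 6.91 and 4.93 CPM on KO day 3 (log2 fold change 1.36 in KO and -0.79 in WT, unadjusted p = 0.000165, adjusted p = 1). Steap4, a metalloreductase of iron and copper, rose under both labels, from 1.09, 1.504 and 0.626 CPM to 43.9, 57.2 and 20.4 CPM in KO (5.23, SE 0.55) and by 8.59 in WT (interaction unadjusted p = 0.00154, adjusted p = 1). The other 8 of the 10 smallest were Atn1, Pcdhga3, 9130604C24Rik, Pmaip1, Erc1, 6330408A02Rik, Cercam and Ccdc12, all with an adjusted p of 1.

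**Figure D5:**
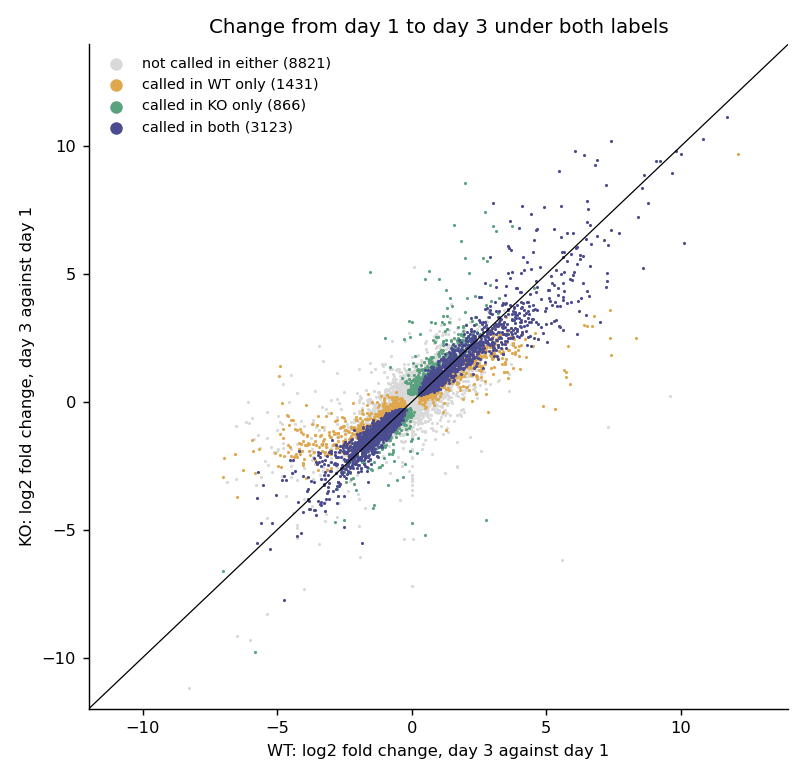
Log2 fold change from day 1 to day 3 in WT (x axis) and KO (y axis) for the 14241 genes tested, with the line of equal change. The 3123 genes called under both labels lie to the lower left and upper right of 0, beside 866 called in KO only and 1431 in WT only.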

How the data were processed

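The authors deposited 1 table with raw read counts and FPKM values for 34745 genes in 18 libraries. Total RNA was taken with a column kit and made into libraries with a SMARTer mRNA kit, and the submitters' processing notes name StringTie and the builds GRCm38.p4 and mm10. The methods name Ballgown beside StringTie for FPKM, and the aligner and the counting program are not given in the sources used here. The 18 deposited count columns gave every value, the 18 FPKM columns were not used, and 0 columns lacked a sample.

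The count analysis used edgeR 4.0.16 under R 4.3.3 (filterByExpr, TMM, glmQLFit and glmQLFTest). All 18 libraries were fitted as 6 groups of 3, the 2-sided p-values were corrected after Benjamini and Hochberg across 14241 genes, and calls were made at 0.05. The script was tested on simulated counts. SE was taken from the quasi-likelihood F statistic. Where no library of a group had more than 3 counts, the fold is a bound against 3 counts in each. These floors cover counting error only. DESeq2 1.42.0 was an alternative.

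The genes named were up to 15 in each direction with the largest fold change among calls without overlap and at least 10 CPM in the higher day (symbols of Gm plus digits or ending in Rik left out), the 10 in each direction with the largest difference in mean CPM, members of the lists, Zmat1, Trim46 and Yap1, and the 10 with the smallest interaction p. The members and lists were chosen with earlier results of these data known, so the lists carry counts and medians and no test. A symbol was on several lines in 59 cases. Same-number KO libraries of days 1 and 3 had deviations with correlations of 0.218, 0.156 and 0.340. Numbers 1 and 2 were not told apart. Day 1 library 2 had 0.187 with day 3 library 1, and day 1 library 1 had 0.105 with day 3 library 2. Pairs of a library 3 with another number ran from -0.279 to -0.18. So the values do not show pairing for numbers 1 and 2, while the library 3 of day 1 deviated alike with the library 3 of day 3. The labels do not say what a number shares. The main fit held no pairing, and the replicate number as a block was an alternative. Strand was not stated, so overlapping genes cannot be told apart. Alternatives were other filters, scalings and sample sets, the replicate block, the title style, and each library left out.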

Additional observations from a re-analysis of the deposited data

How the results depend on the processing

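The count of calls was 3989. It was 3416 without a filter, 3766 with a stricter one, 3997 with DESeq2 size factors, 4179 with total counts, 4801 with the DESeq2 Wald test, 4651 with only the libraries compared and 2727 with title style in the model. Leaving out 1 library gave 2235 to 4218 calls, and the single-hyphen libraries alone 606. For WT, leaving out 1 library gave 2842 (without day 3 library 3) to 4635 calls, with 2963 without the double-hyphen day 1 library (4554 with all). The interaction had 0 calls in edgeR throughout and 1 in DESeq2. Of the distinct list members, 237 were called, 142 (without day 3 library 2) to 227 with 1 library left out and 52 with the single-hyphen libraries alone. With the replicate number as a block the calls were 4015 within the label and 4332 in the 6 libraries. Calls that the block changed, and list counts that it moved by over 1.5 times, are given beside the results. Among the genes followed through every alternative, the block changed no other call, apart from Fabp5, Col1a2, Col3a1 and Sparc. These passed with it and not without. In the 6 libraries it also gave 2 T and NK cell genes lower, 1 B cell gene higher and 1 lower, 1 erythroid gene lower and 1 macrophage gene higher.

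Of 132 named genes called, 48 were called under every alternative, 56 lost the call only with the single-hyphen libraries, and 106 kept it with any 1 library left out. These 132 leave out genes named only beside a list count or for the interaction, such as Rab3d, Atp6v0a1, Tgfb1, Slc3a2 and Rgs11. Of those left out, Rab3d, Atp6v0a1, Tgfb1 and Slc3a2 lost their calls with 1 library left out, as given beside them. None of the 132 turned its direction. With title style in the model Fos (adjusted p = 0.218), Tfeb (0.0614), Arid5a (0.0612), Thbs1 (0.0845), Cxcl12 (0.414), Flna (0.108), Apoe (0.0609), Clec7a (0.0578), Tfrc (0.0783), Il1rn (0.0723), Ltf (0.0893), Trim46 and Pcdhga2 lost their calls. The lower counts of osteoclast transcription factors, actin ring genes and iron handling were then 2, 2 and 3, the higher count of fusion genes 4, the lower count of lipid genes 4 that of chemokines 7, and those of MHC class II and of mast cell genes 1 each. Among genes not called, Tcirg1 turned to 0.081 with total counts and 0.012 with the single-hyphen libraries, and Mitf to 0.001 with total counts. Zmat1 turned to 0.20 with total counts, 0.21 with title style in the model, and ran from -0.199 to 0.144 with 1 library left out, above 0 without day 1 library 3. Ctgf turned to -0.11 with title style in the model, and Ddx58 to 0.29 with the single-hyphen libraries. The cause was not tested. Title style and day are partly confounded in KO, since no day 3 library has a double-hyphen title.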

Other observations

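Some lists had a called share under the 28.0% of all genes tested. Cholesterol synthesis gave 4 of 23 tested genes called higher and 0 lower (17.4%, median 0.22), among them Lss, lanosterol synthase, at 61.2, 58.5 and 56.6 CPM on day 1 and 101, 85.0 and 118 CPM on day 3 (log2 fold change 0.79, SE 0.15, adjusted p = 0.00178, edgeR). The count was 1 without day 1 library 2, day 3 library 1 or day 3 library 3, 2 without day 1 library 1, 11 with total counts as scaling, 2 with the replicate block within the label and 0 with the single-hyphen libraries alone. In serine synthesis and amino acid supply, 3 of 17 were called higher and 1, Slc3a2, lower (23.5%, median 0.29), and 5 and 0 with the replicate block in the 6 libraries. The call of Slc3a2 was also lost with the block within the label and without day 1 library 1 or 2 or day 3 library 1 or 2. The glutamine transporter Slc1a5 rose from 56.1, 55.0 and 72.3 CPM to 218, 259 and 143 CPM (1.76, SE 0.26, adjusted p = 0.000407), Slc38a2 by 0.72 (SE 0.15) and the stress factor Atf4 by 0.54 (SE 0.12), and none of the 3 lost its call with 1 library left out.

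Iron handling gave 1 of 12 called higher, Steap4, and 5 lower (median -0.56). Over all genes tested 12.5% were called higher and 15.5% lower. Slc11a1, a metal exporter of phagosomes, fell by 1.66 (SE 0.36, adjusted p = 0.00421, edgeR). The ferritin chain Fth1 fell by 1.68 (adjusted p = 0.0109) and the iron exporter Slc40a1 fell by 2.06 (adjusted p = 0.0132), and without day 3 library 2 these gave 0.0575 and 0.0642. Fth1 had 0.0583 with the replicate block in the 6 libraries. The transferrin receptor Tfrc was at 1689, 1789 and 435 CPM on day 1 and 285, 312 and 254 CPM on day 3 (adjusted p = 0.0432), so day 1 library 3 lay near the day 3 range, and the call was lost without day 1 library 1 (0.123), day 1 library 2 (0.135), day 3 library 1 (0.106), day 3 library 2 (0.108) or day 3 library 3 (0.107). The lower count of the list was 1 without day 3 library 2, 3 without day 1 library 1, day 1 library 2 or day 3 library 1, and 0 with the single-hyphen libraries alone.

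Chemokines and inflammatory cytokines gave 1 of 26 called higher and 11 lower (median -1.18), and 0 and 1 with the single-hyphen libraries alone. Cxcl16 fell from 193, 211 and 177 CPM to 36.0, 39.0 and 72.5 CPM (-1.98, SE 0.27, adjusted p = 0.000289, edgeR) and Ccl6 fell by 2.74 (adjusted p = 0.0102). Il1rn, the interleukin 1 receptor antagonist, was the one that rose, from 24.6, 17.7 and 27.5 CPM to 163, 158 and 33.9 CPM (adjusted p = 0.0165), a call lost without day 1 library 1 (0.0542), day 1 library 2 (0.0694), day 3 library 1 (0.0551) or day 3 library 2 (0.0606), and with the replicate block in the 6 libraries (0.0584). With that block 2 others of the list, Csf1 and Ptgs2, were called higher. The lower count was 6 with that block, 5 without day 1 library 1 or day 3 library 2, 6 without day 3 library 1 and 7 without day 1 library 2. Main-fit calls made up 46.2% of the 26 tested, against 28.0% of all genes tested (12.5% higher, 15.5% lower). MHC class II gave 2 of 10 called lower, Ciita and Cd74 (median -1.49). That was 20%, against 15.5% of all genes tested called lower and 28.0% called in either direction. Cd74, the invariant chain, fell from 271, 417 and 282 CPM to 46.2, 19.4 and 115 CPM (adjusted p = 0.0123, and 0.0511 and 0.0508 without day 3 libraries 1 and 2, with a log2 fold change of -3.30 without day 3 library 3). H2-Aa (adjusted p = 0.0574) and H2-Ab1 (0.0562) did not pass, and had 0.0388 and 0.0387 with the block in the 6 libraries, where 7 were called. The count was 0 without day 3 library 1 or day 3 library 2, 1 without day 1 library 2 or day 1 library 3, and 5 without day 3 library 3.

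Markers of other blood cells were low. The 10 B cell genes summed to 388, 416 and 193 CPM on day 1 and 163, 75.0 and 133 CPM on day 3, with 0 of 10 called in edgeR (3 at an unadjusted p under 0.05) 1 by the DESeq2 Wald test and 1 without day 3 library 1 or day 3 library 3. The 10 erythroid genes summed to 8.27, 10.2 and 27.3 CPM and then 19.8, 20.7 and 19.8 CPM, with 0 of 6 tested called in edgeR (1 at an unadjusted p under 0.05), 1 by the DESeq2 Wald test and 4 without day 1 library 3. Among all genes tested 15.5% were called lower and 28.0% in either direction. Of the T and NK cell genes, 1 of 4 tested was called lower, Cd4. Of the mast cell, basophil and eosinophil genes, 2 of 9 were called lower, Prg2 and Epx. Each of these 2 counts was 0 without day 1 library 3, day 3 library 1 or day 3 library 2, and the mast cell count was 1 without day 1 library 1 or day 1 library 2.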
